A study of Mus musculus with 6 samples.

Results

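Genes for 10 subunits of the voltage-gated calcium channels were examined in whole cerebella that express a STING mutant in Purkinje cells. They are *Cacna1a*, *Cacna1c*, *Cacna1d*, *Cacna1e*, *Cacna1g*, *Cacna1h*, *Cacnb2*, *Cacnb4*, *Cacna2d2* and *Cacna2d3*. Each was found by its symbol in the table of raw counts, which makes 10 of 53746 genes, and all 10 had enough counts to be tested. Poly A RNA was sequenced from 3 N153SLSL/LSLPcp2-cre mice (Pcp2-cre) and 3 N153SLSL/LSL mice (control), all 2 months of age, with 1 library per mouse. Both groups carry 2 copies of the conditional *Sting1* N153S allele, which a LoxP-Stop-LoxP cassette keeps silent without Cre. Control mice lack Cre, so the groups differ in the *Pcp2-cre* transgene and in the recombination it causes, and a mouse with Cre alone was not analysed here. The *Pcp2* promoter drives Cre in Purkinje cells, while each library holds the RNA of every cerebellar cell type. Mice 1 and 2 of each genotype are male and mouse 3 is female.

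Voltage-gated calcium channels open when the membrane depolarizes and let calcium into the cell. The alpha1 subunit forms the pore and sets the channel type. Cav1 and Cav2 channels need strong depolarization, whereas Cav3 or T-type channels open near the resting potential and close again quickly. A cytoplasmic beta subunit brings Cav1 and Cav2 pores to the membrane and tunes their gating, and an extracellular alpha2delta subunit raises the number of channels at the surface and at synapses. Purkinje cells are known for a dominant P-type current through the *Cacna1a* pore and for T-type current in their dendrites. Inherited defects of *Cacna1a*, *Cacnb4* and *Cacna2d2* cause ataxia in mice.

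The 3 members that fell, described below with their values, were *Cacna1g*, *Cacnb2* and *Cacna2d2*. The RefSeq promoter table held windows for 7 of the 10 members and for both accessory subunits among those that fell. The 250 bases before each start are shown for *Cacnb2*, which has 2 annotated starts, and for *Cacna2d2*. The window of *Cacna2d3*, a relative of *Cacna2d2* with a log2 fold change of 0.03, is set beside them. Sequences are from RefSeq on build GRCm38.p6, run 5′ to 3′ on the strand of the gene, and have GC boxes (GGGCGG, or CCGCCC on the other strand) in capitals.
Cacnb2 first start, chr2:14604056-14604305, plus strand: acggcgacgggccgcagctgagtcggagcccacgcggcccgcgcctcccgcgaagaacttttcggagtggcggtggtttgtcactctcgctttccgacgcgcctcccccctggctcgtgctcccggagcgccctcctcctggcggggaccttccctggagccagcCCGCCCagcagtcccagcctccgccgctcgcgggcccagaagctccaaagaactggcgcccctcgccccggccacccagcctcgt
Cacnb2 second start, chr2:14823842-14824091, plus strand: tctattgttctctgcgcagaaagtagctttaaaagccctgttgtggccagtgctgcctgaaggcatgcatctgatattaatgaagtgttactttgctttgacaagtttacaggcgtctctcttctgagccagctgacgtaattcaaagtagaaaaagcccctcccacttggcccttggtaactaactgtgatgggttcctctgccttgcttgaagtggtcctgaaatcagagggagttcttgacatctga
Cacna2d2, chr9:107399630-107399879, plus strand: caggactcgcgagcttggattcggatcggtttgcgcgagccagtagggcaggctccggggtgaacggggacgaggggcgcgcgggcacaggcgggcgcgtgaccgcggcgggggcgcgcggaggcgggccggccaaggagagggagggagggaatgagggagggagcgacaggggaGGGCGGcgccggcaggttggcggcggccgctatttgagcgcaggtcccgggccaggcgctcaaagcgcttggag
Cacna2d3, chr14:29721865-29722114, minus strand: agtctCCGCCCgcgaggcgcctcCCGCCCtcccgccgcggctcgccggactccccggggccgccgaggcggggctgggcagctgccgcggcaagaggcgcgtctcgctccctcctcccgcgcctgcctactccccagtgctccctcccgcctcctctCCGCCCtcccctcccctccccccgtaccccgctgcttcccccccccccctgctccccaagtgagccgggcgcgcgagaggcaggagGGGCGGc
The first *Cacnb2* window has 1 GC box and 73.2% G+C, while the second has none and 46.0%. The *Cacna2d2* window has 1 GC box and 74.4% G+C, and that of *Cacna2d3* has 4 and 80.0%. A GC box is present in 32.7% of all 32851 windows of this length, whose median G+C content is 52.4%. The half-site of ROR receptors (AGGTCA or TGACCT), found in 14.0% of all windows, and the cyclic AMP response element (TGACGTCA), found in 1.55%, have no match in any window of the 7 members. The windows of *Cacnb2* and *Cacna2d2* thus share no motif among those searched that *Cacna2d3* lacks. No window was available for *Cacna1g*, and the counts do not show which *Cacnb2* start was used.

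The libraries held 6733178 to 10178218 counts, and 3 counts, taken as the floor, came to 0.297 to 0.447 CPM (counts scaled by library size with TMM factors), which covers counting error only. *Sting1* had 23.2, 27.2 and 26.2 CPM in control mice 1, 2 and 3 and 44.4, 34.2 and 35.5 CPM in Pcp2-cre mice 1, 2 and 3. The 11 Purkinje cell marker genes were all present and summed to 4193 to 4618 CPM in control and 2457 to 2882 CPM in Pcp2-cre mice. All 11 passed 0.05 after Benjamini-Hochberg adjustment in the edgeR fit, and their median log2 fold change was -0.69. In RNA of a whole tissue, fewer cells of a type and less RNA per cell cannot be told apart. Markers of microglia summed to 106 to 109 CPM in control and 261 to 283 CPM in Pcp2-cre mice. Of the 7 Bergmann glia and astrocyte markers, *Gfap* had a log2 fold change of 1.94 and *Aqp4* 0.51, both called higher. *Slc1a3* (-0.22) and *Gdf10* (-0.25) were lower by adjusted p in edgeR, and the median of the 7 was 0.08. The 9 granule cell markers summed to 5480 to 5596 and 5624 to 5852 CPM, with none called. By adjusted p in edgeR 1 of them, *Neurod1* (0.17), was higher and 0 were lower. The 6 oligodendrocyte markers summed to 3548 to 3763 CPM in control and 4154 to 4366 CPM in Pcp2-cre mice. None of these 6 was called, while 4 were higher and 0 lower by adjusted p. Choroid plexus genes stood apart in control mice 1 and 2, in which 7 markers summed to 785 and 1225 CPM, against 9.75 to 73.1 CPM in the other 4 mice. With both left out, which leaves control mouse 3 as the only control, *Cacna1g* (-0.80 as a log2 fold change) and *Cacnb2* (-0.64) were still lower. The values of *Cacna1e* and *Cacna2d2* are given both ways below.

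A gene was called when its adjusted p was at most 0.05 and its log2 fold change, Pcp2-cre against control, was at least 0.5 in size, which are the thresholds of the study. Of the 10 subunits, 2 were called lower and 0 higher, where 3.17% of the 16961 genes tested were called, 1.79% lower and 1.37% higher. By adjusted p alone 3 were lower and 0 higher, against 7.74% of all genes (4.75% lower, 2.99% higher). The CPM of the genotypes did not overlap for 4 subunits, all lower, against 22.2% of all genes (11.4% lower, 10.8% higher). The 10 subunits had a median log2 fold change of -0.06, against 0.00 for all genes tested, so the falls were those of single subunits. At least 1 subunit of each class fell, a T-type pore, a beta subunit and an alpha2delta subunit.

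**Figure D1:**
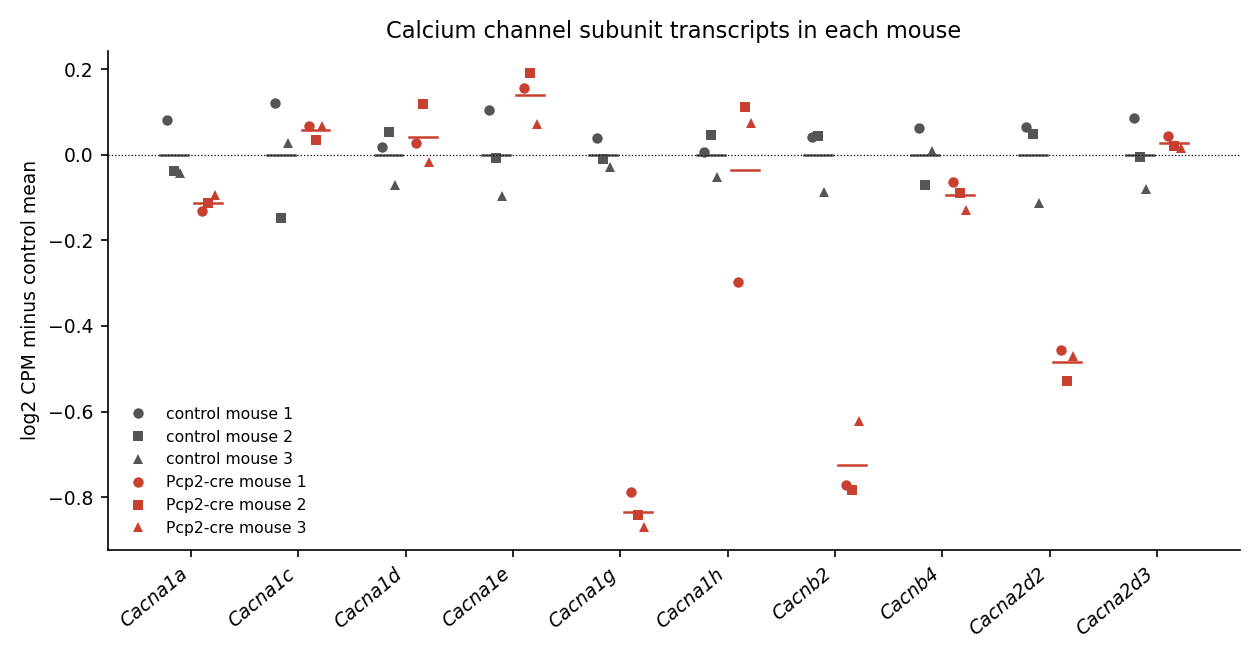
Level of each of the 10 subunit genes in every mouse, from TMM-normalised CPM on a log scale, with 3 control and 3 Pcp2-cre mice as points and each group's mean as a bar. *Cacna1g*, *Cacnb2* and *Cacna2d2* show a gap between the genotypes, *Cacna1a* a narrow one, and the points of the other 6 genes overlap.

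Among the pore genes, *Cacna1g* (ENSMUSG00000020866) encodes the Cav3.1 pore of T-type channels. The gene spans chr11:94299217-94365230 of GRCm39 on the minus strand. It had 437, 423 and 417 CPM in control mice 1, 2 and 3 and 246, 237 and 233 CPM in Pcp2-cre mice 1, 2 and 3. The lowest control lay far above the highest Pcp2-cre mouse, and within a genotype the mice lay close together, at 426 ± 10.4 and 239 ± 6.89 CPM (SD, n = 3 mice each). The level fell by 43.9%, or -0.83 as a log2 fold change (95% interval -0.92 to -0.75, standard error 0.0406; edgeR, Benjamini-Hochberg adjusted p = 1.22e-11). By p it was gene 9 of the 16961 tested. These values rest on 2840 to 4208 counts in control and 1574 to 2057 counts in Pcp2-cre mice, so counting error is small beside the difference. The remaining T-type pore among the members, *Cacna1h* (Cav3.2), had few counts, 37 to 52 in control and 33 to 50 in Pcp2-cre mice. It had 5.36, 5.51 and 5.15 CPM in control and 4.35, 5.77 and 5.62 CPM in Pcp2-cre mice, and the groups overlapped. The 95% interval of its log2 fold change, -0.02, ran from -0.41 to 0.37, which leaves out a change of the size seen for *Cacna1g* but not smaller ones within these bounds.

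*Cacna1a*, the Cav2.1 pore of P/Q-type channels, had the highest deposited FPKM of the 10 members. The gene spans chr8:85065224-85367997 of GRCm39 on the plus strand. It had 734, 677 and 674 CPM in control and 634, 642 and 651 CPM in Pcp2-cre mice. Every control lay above every Pcp2-cre mouse, by a gap that was small beside the distance of control mouse 1 from the other controls. The difference was -0.11 on the log2 scale (95% interval -0.20 to -0.03, standard error 0.0391), and the edgeR adjusted p missed the threshold at 0.0869. In the deposited FPKM, which the authors normalised to gene length and library size, the groups overlapped, with 93.0 to 98.2 in control and 85.9 to 93.7 in Pcp2-cre mice. Division by a fixed length keeps the order of mice for a gene, and why the scales differ here was not tested. *Cacna1e*, the Cav2.3 pore of R-type channels, lay on the opposite side. It had 494, 457 and 429 CPM in control and 512, 524 and 482 CPM in Pcp2-cre mice, so that Pcp2-cre mouse 3 lay below control mouse 1. Here the log2 fold change was 0.14 (95% interval 0.04 to 0.24, edgeR adjusted p = 0.0850). Without control mice 1 and 2, with control mouse 3 as the only control and the lowest of the 3, it was 0.24. Neither Cav2 pore therefore passed in the main comparison, and both intervals exclude a change as large as the threshold of 0.5.

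The L-type pores showed smaller differences. *Cacna1c* (Cav1.2) had 153.2, 127.2 and 143.5 CPM in control and 147.5, 144.3 and 147.7 CPM in Pcp2-cre mice, and *Cacna1d* (Cav1.3), which opens at lower voltages than *Cacna1c*, had 120, 123 and 113 against 121, 128 and 117 CPM. The Pcp2-cre values lay within or close to the range of the controls for both. The log2 fold changes were both 0.05, with 95% intervals of -0.06 to 0.16 and -0.05 to 0.15.

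Of the beta subunits, *Cacnb2* (ENSMUSG00000057914) fell and *Cacnb4* was not called. The *Cacnb2* gene spans chr2:14607899-14994127 of GRCm39 on the plus strand. It had 51.1, 51.2 and 46.8 CPM in control and 29.1, 28.9 and 32.3 CPM in Pcp2-cre mice, from 344 to 472 and 218 to 250 counts. The groups did not overlap, and Pcp2-cre mouse 3 was the highest of its group while control mouse 3 was the lowest of its own. The means were 49.7 ± 2.55 and 30.1 ± 1.89 CPM (SD, n = 3 mice each). *Cacnb2* fell by 39.5%, or -0.72 as a log2 fold change (95% interval -0.88 to -0.57, standard error 0.0742, edgeR adjusted p = 5.57e-07). *Cacnb4*, the main beta subunit of the cerebellum, was the more abundant per length, at 58.8 against 11.6 FPKM in control mice. It had 532, 485 and 512 CPM in control and 487, 479 and 466 CPM in Pcp2-cre mice, with Pcp2-cre mouse 1 just above control mouse 2. The log2 fold change of *Cacnb4* was -0.10 (95% interval -0.18 to -0.01, edgeR adjusted p = 0.202). The intervals of the 2 beta subunits lie apart.

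Of the alpha2delta subunits, *Cacna2d2* (ENSMUSG00000010066; GRCm39 chr9:107276811-107406543, plus strand) fell by 28.6%. It had 270, 267 and 239 CPM in control and 189, 179 and 187 CPM in Pcp2-cre mice. The groups did not overlap, although control mouse 3 lay below the other controls. The means were 259 ± 17.3 and 185 ± 5.01 CPM (SD, n = 3 mice each). On the log2 scale the change of -0.49 (95% interval -0.59 to -0.38, standard error 0.0489, edgeR adjusted p = 4.36e-07) passed the test but lay just inside the fold threshold, so it was not called. It was called without control mouse 3 (-0.54) or without Pcp2-cre mouse 1 (-0.50), and without control mice 1 and 2 together it was -0.37. *Cacna2d3* had 53.3, 50.0 and 47.5 CPM in control and 51.8, 50.9 and 50.7 CPM in Pcp2-cre mice, all of the latter within the control range. For *Cacna2d3* the log2 fold change was 0.03 (95% interval -0.11 to 0.16).

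**Figure D2:**
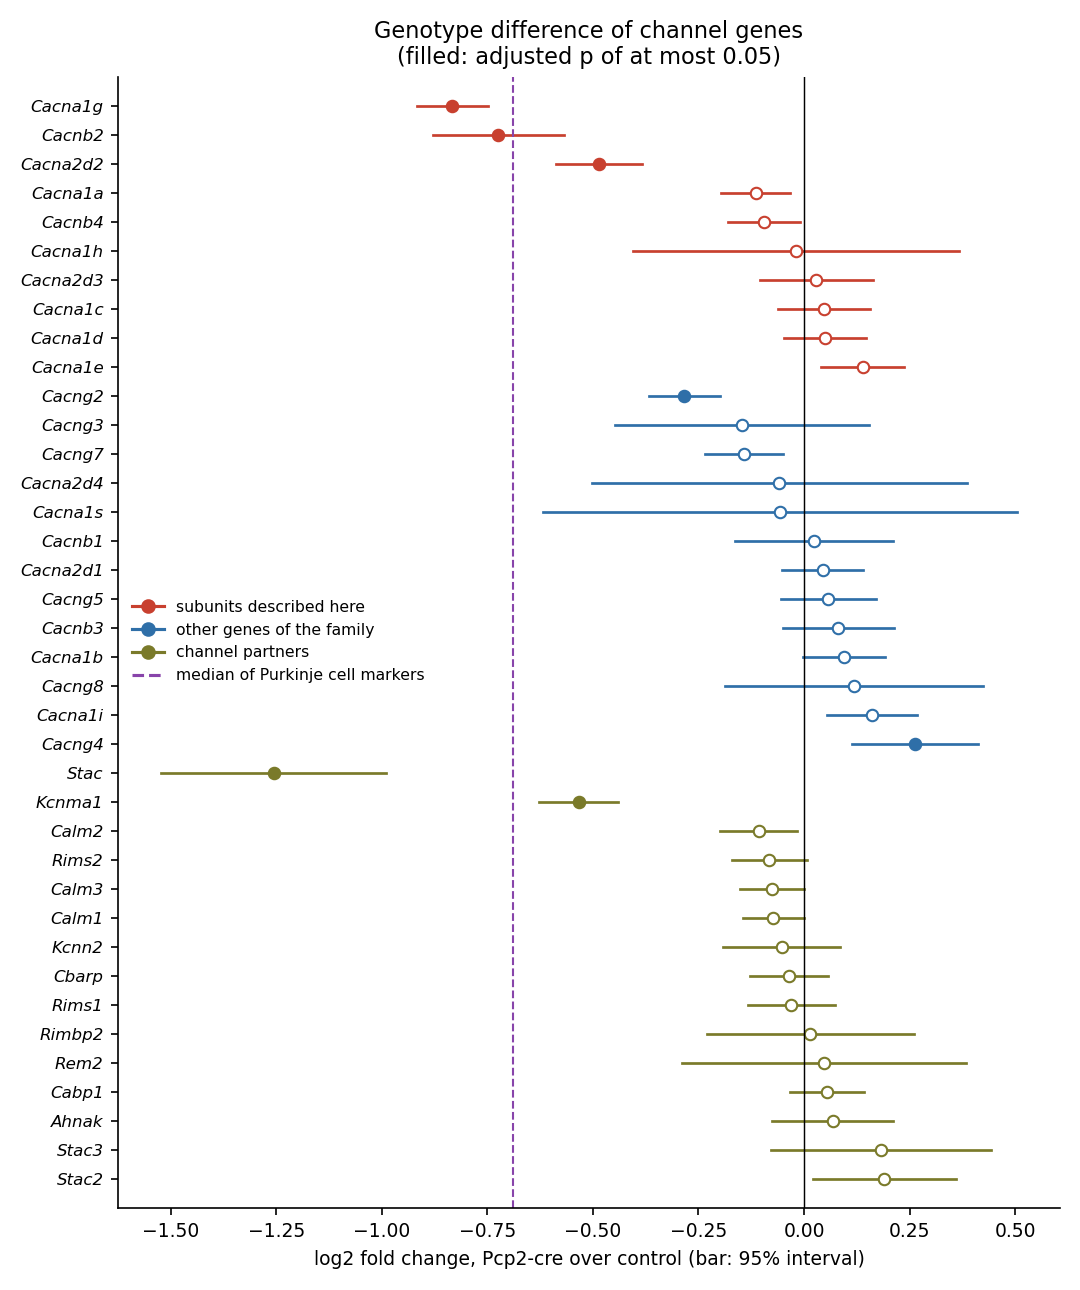
Log2 fold change of each subunit gene, Pcp2-cre against control, with its 95% interval from the edgeR quasi-likelihood fit over 3 mice per genotype. *Cacna1g* (-0.83), *Cacnb2* (-0.72) and *Cacna2d2* (-0.49) lie apart from the other 7, which range from -0.11 to 0.14.

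Levels of different genes were set side by side on the FPKM scale. In control mice *Cacna1a* was highest at 95.5 ± 2.63 FPKM (SD, n = 3 mice), followed by *Cacnb4* at 58.8, *Cacna1g* at 54.4, *Cacna2d2* at 39.9 and *Cacna1e* at 38.0. *Cacna1d* came next at 16.1, then *Cacnb2* at 11.6, *Cacna2d3* at 11.3 and *Cacna1c* at 11.1, and *Cacna1h* was last at 0.545. The neighbours *Cacnb4* and *Cacna1g* overlapped in their values per mouse, as did *Cacna2d2* and *Cacna1e*, and *Cacnb2*, *Cacna2d3* and *Cacna1c* overlapped among themselves. In Pcp2-cre mice *Cacna1e* (43.0 FPKM) stood above *Cacna1g* (30.9) and *Cacna2d2* (28.6) in every mouse, and *Cacnb2* (7.03) lay below *Cacna1c* and *Cacna2d3* (both 11.6). *Cacna1a* (89.9) and *Cacnb4* (54.7) came first and second, as in controls. This order depended on the scale used. By CPM per kilobase of annotated exon, a scale added after seeing the data, *Cacnb4* was first in both genotypes (56.0 in control and 52.4 in Pcp2-cre mice). On that scale *Cacna1g* lay above *Cacna1a* in control mice (41.2 against 36.4) and below it in Pcp2-cre mice (23.1 against 33.6), without overlap in either. *Cacna1e* (17.9 and 19.7) lay below *Cacna1g* and *Cacna2d2* in both genotypes, so its place above them in Pcp2-cre mice held for FPKM alone of these scales.

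The share of each gene in the summed FPKM of its class was computed per mouse, over all 10 alpha1, 4 beta and 4 alpha2delta genes. *Cacna1g* made up 22.8%, 22.9% and 23.1% of the alpha1 signal in control mice and 15.0%, 13.8% and 14.0% in Pcp2-cre mice. The share of *Cacna1e* was 16.0% ± 1.46 in control and 19.8% ± 1.03 in Pcp2-cre mice (SD, n = 3 mice each). *Cacna1a* held 40.3% and 41.6%, with overlapping groups. *Cacnb2* made up 13.2%, 12.8% and 11.5% of the beta signal in control and 8.36%, 7.42% and 9.19% in Pcp2-cre mice. *Cacnb4* held 63.3% and 64.6%, without overlap. *Cacna2d2* made up 59.3%, 62.3% and 60.6% of the alpha2delta signal in control and 52.5%, 50.3% and 53.3% in Pcp2-cre mice, beside *Cacna2d3* with 17.1% and 21.1%. Shares did not overlap between the genotypes for 11 of the 18 genes. This count has no background over all genes, because shares were computed only within these classes. *Cacna1g*, *Cacnb2* and *Cacna2d2* were lower in Pcp2-cre mice, and *Cacna1c*, *Cacna1d*, *Cacna1e*, *Cacna1i*, *Cacnb1*, *Cacnb4*, *Cacna2d1* and *Cacna2d3* were higher. In FPKM itself every gene with a higher share overlapped between the genotypes, while those with a lower share did not. Each of the 11 had the smallest p that 3 mice against 3 allow (two-sided exact permutation test, p = 0.10, adjusted p = 0.164 over 18 genes). The share of *Cacnb2* fell by 4.17 percentage points on the FPKM scale and by 1.66 when counts per kilobase of annotated exon were used instead. That of *Cacnb4* changed direction (-0.457 points), so both depended on the scale used. What sets the scales apart was not tested. A share of a sum rises when another member falls. The summed FPKM itself was 237 ± 10.48 and 216 ± 15.1 for alpha1 (overlapping, exact permutation p = 0.20), 92.8 ± 2.87 and 84.7 ± 5.37 for beta (p = 0.10) and 65.7 ± 3.84 and 54.9 ± 3.34 for alpha2delta (p = 0.10), each in control and Pcp2-cre mice (SD, n = 3).

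**Figure D3:**
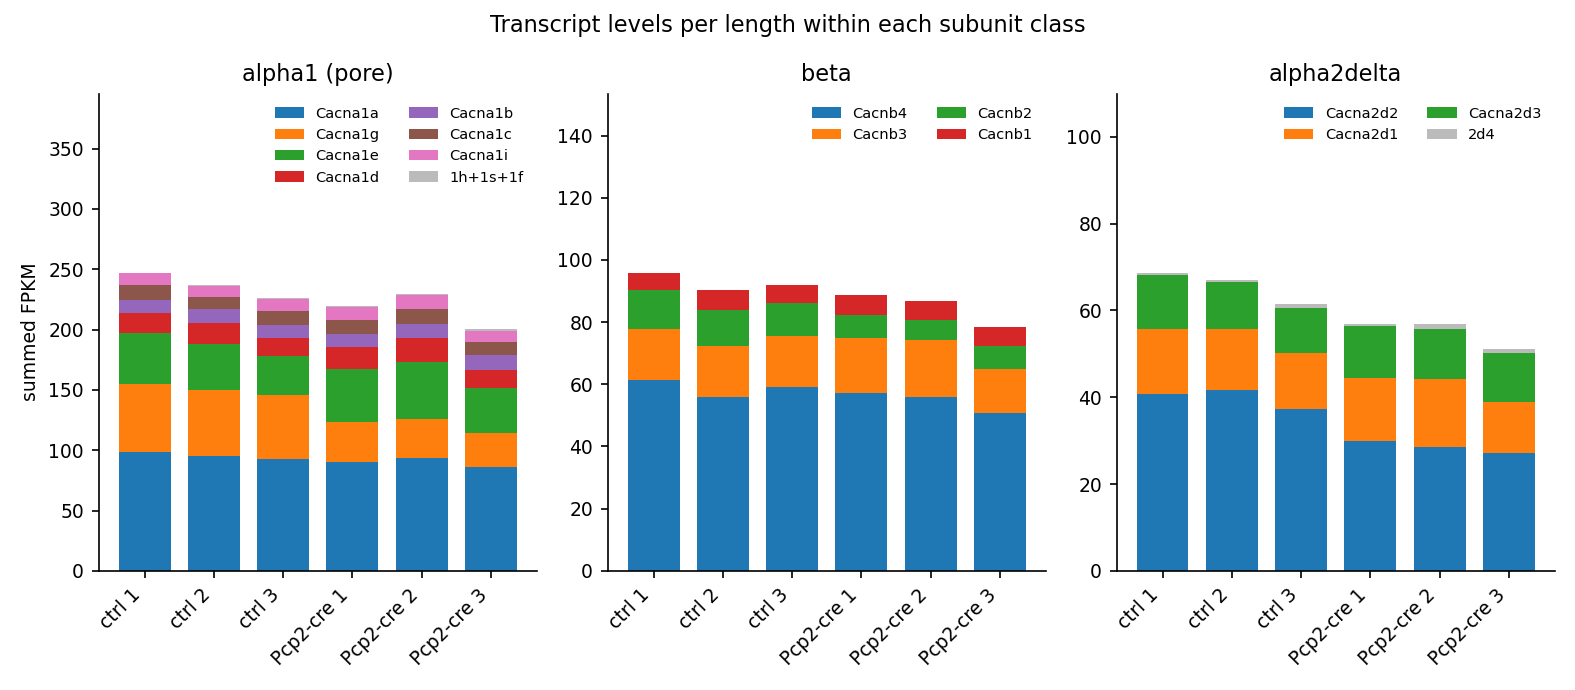
FPKM of each gene stacked within the alpha1, beta and alpha2delta classes, for control and Pcp2-cre mice (n = 3 each), with the y axis starting at 0. The *Cacna1g*, *Cacnb2* and *Cacna2d2* segments are shorter in Pcp2-cre mice, while the alpha1 total goes from 237 to 216 FPKM with overlapping mice.

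Since the Purkinje cell markers fell as well, each subunit was also expressed per mouse relative to them, as its log2 CPM minus that of the markers, averaged over the 11, with the control mean set to 0. This marker mean was -0.54, -0.75 and -0.68 in Pcp2-cre mice 1, 2 and 3. *Cacna1g* was at 0.08, -0.07 and -0.01 in control and at -0.25, -0.10 and -0.19 in Pcp2-cre mice, a difference of -0.18. The groups did not overlap, although Pcp2-cre mouse 2 came close to the lowest control (two-sided exact permutation test, p = 0.10, adjusted p = 0.125 over the 10 members). Lower values without overlap were seen in 0.495% of all genes tested, a share kept low by the fall of the reference itself. Single markers had log2 fold changes of -0.96 to -0.40, and that of *Cacna1g*, -0.83, lies within this range. The difference of *Cacna1g* from the reference was -0.07 with overlap when *Calb1* (calbindin) alone was used. On the log2(FPKM + 1) scale it was -0.14 with overlap, so this difference depended on the reference and the unit. *Cacnb2* differed by -0.07 with overlapping groups (exact permutation p = 0.60), and its sign changed with *Calb1* as the reference (0.04). *Cacna2d2* differed by 0.17, also with overlap (exact permutation p = 0.20). The other 7 members lay higher relative to the markers in every Pcp2-cre mouse, by 0.54 for *Cacna1a* to 0.79 for *Cacna1e*, as did 88.7% of all genes. How much of each fall goes with the Purkinje cell markers was not tested beyond these values.

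**Figure D4:**
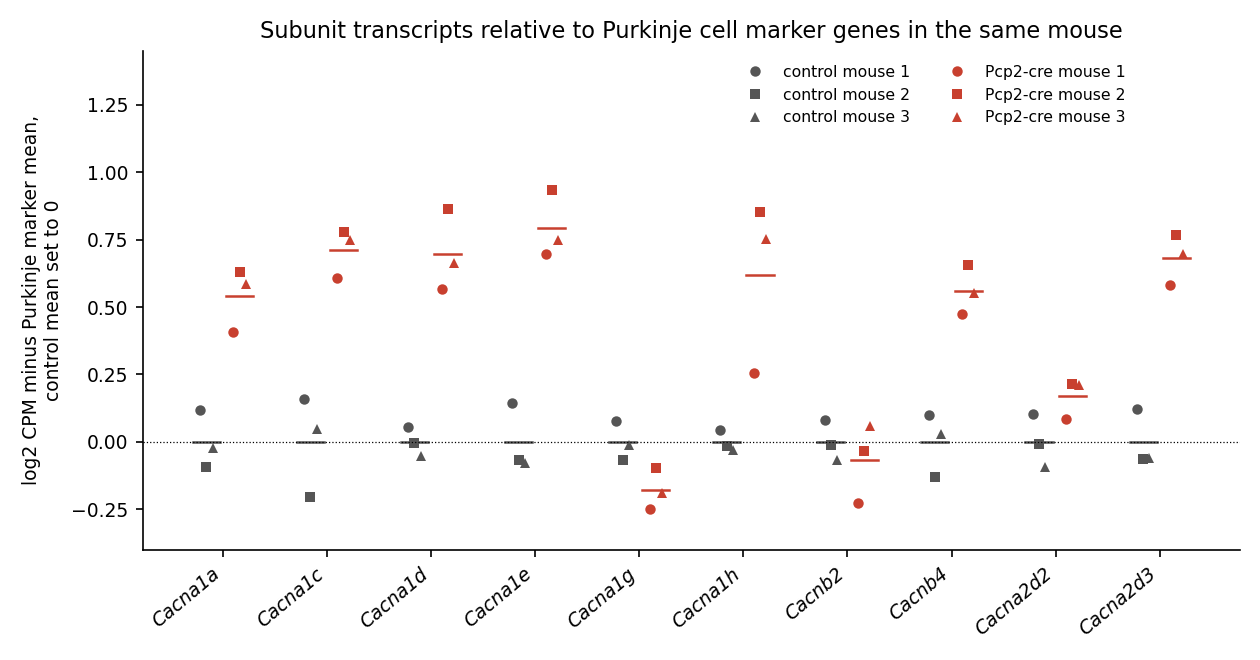
Log2 CPM of each subunit minus the average of the 11 Purkinje cell markers, with the control mean at 0, for 3 control and 3 Pcp2-cre mice. *Cacna1g* (-0.18) is slightly lower in Pcp2-cre mice without overlap, while *Cacnb2* (-0.07) and *Cacna2d2* (0.17) overlap between the genotypes. The other 7 subunits lie 0.54 to 0.79 higher in Pcp2-cre mice.

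Genes whose log2 CPM, centred on the control mean, lay near to that of *Cacna1g* over the 6 mice included *Garnl3* and *Agfg2*. Their root mean square differences from it were 0.0391 and 0.0428. *Garnl3* had 243, 248 and 242 CPM in control and 140, 144 and 134 CPM in Pcp2-cre mice, and *Agfg2* had 44.2, 41.4 and 38.6 against 24.8, 23.1 and 22.8 CPM. The log2 fold change of both was -0.81. The mice of both genotypes are included, so a gene with a fall of like size is near by construction.

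The rest of the channel family was examined as a list of 16 further genes, the remaining alpha1, beta and alpha2delta genes and the gamma genes, most of which encode AMPA receptor auxiliary proteins (TARPs). Of these, 13 were tested and 0 were called in either direction, with a median log2 fold change of 0.04. By the adjusted p of edgeR alone 1 was lower and 1 higher. *Cacng2*, which encodes stargazin, had 165, 164 and 161 CPM in control and 134, 131 and 138 CPM in Pcp2-cre mice, without overlap (log2 fold change -0.28 ± 0.0405 SE, edgeR adjusted p = 4.93e-05). *Cacng4*, another TARP gene, had 41.2, 36.0 and 37.6 CPM in control and 44.4, 47.9 and 45.6 CPM in Pcp2-cre mice (log2 fold change 0.26 ± 0.0715 SE, edgeR adjusted p = 0.0240). The third T-type pore gene, *Cacna1i* (Cav3.3), had 106, 103 and 120 CPM in control and 121, 125 and 124 CPM in Pcp2-cre mice (log2 fold change 0.16, edgeR adjusted p = 0.0601). The 3 T-type pores therefore had different values, -0.83, -0.02 and 0.16, and only that of *Cacna1g* passed the test in the main fit. *Cacna1b*, the N-type pore Cav2.2, had 104 to 107 CPM in control and 108 to 119 CPM in Pcp2-cre mice (log2 fold change 0.09, edgeR adjusted p = 0.289).

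Of 18 genes whose proteins bind the channels or act with them, 15 were tested, and 2 were called lower and 0 higher. The median over the 15 was -0.03 on the log2 scale. *Stac*, an adaptor that slows the inactivation of L-type channels, had 18.8, 16.8 and 19.2 CPM in control and 9.09, 7.16 and 6.81 CPM in Pcp2-cre mice, without overlap. *Stac* thus changed by -1.26 ± 0.128 SE on the log2 scale (edgeR adjusted p = 4.96e-07), a larger change than that of any of the 10 subunits. *Kcnma1*, the BK potassium channel that calcium entry opens, had 331, 313 and 311 CPM in control and 230, 223 and 208 CPM in Pcp2-cre mice. Its change of -0.53 ± 0.0451 SE on the log2 scale (edgeR adjusted p = 3.16e-08) was close to the threshold, and without Pcp2-cre mouse 3 only 1 partner gene was called. *Kcnn2*, the SK2 potassium channel, had 44.5 to 47.7 CPM in control and 42.3 to 45.4 CPM in Pcp2-cre mice, and its log2 fold change was -0.05 (95% interval -0.19 to 0.09). The other 13 tested partners had an adjusted p above 0.05.

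Whether the counting used strand is not given in the sources used here, so reads of genes on opposite strands cannot be told apart where their exons overlap. In Gencode M39 the exons of *Cacna1g* overlap those of the opposite-strand *Gm72056* over 323 bp, or 3.12% of its exon length. Those of *Cacna2d2* overlap *Gm17141* over 82 bp. *Gm17141* had 6.85 to 7.98 CPM in control and 3.69 to 5.77 CPM in Pcp2-cre mice (log2 fold change -0.69, adjusted p = 0.0221 in edgeR), many fewer reads than *Cacna2d2* had. Exons of *Cacnb2* overlap 3 opposite-strand genes over 1251 bp, and the 2 of these that are in the count table had at most 6 counts and 1 count in a mouse. *Stac* overlaps *Gm43236* over 307 bp (log2 fold change -1.56) and *Kcnma1* overlaps *4930519K11Rik* over 1063 bp (-0.87), both with far fewer reads than the gene they overlap. Among the other members, *Cacnb4* overlaps *A430018G15Rik* over 1433 bp, or 15.7% of its exon length. *A430018G15Rik* had up to 1282 counts in a mouse (log2 fold change -0.05). *Cacna1d* overlaps *Chdh* over 1477 bp (-0.01), and *Cacna1a* overlaps *Gm16183* over 741 bp (-0.04).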

How the data were processed

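Per the labels, poly A RNA of whole cerebellum was sequenced from 3 mice per genotype. The authors perfused the mice, made paired-end libraries, aligned trimmed reads to GRCm39 with STAR and counted Gencode features with featureCounts and StringTie. Tool versions, the Gencode release, strand use and the treatment of multiply mapped reads are not given in the sources used here. The deposited tables hold raw counts of 53746 genes and FPKM of 55005 genes, normalised by the authors to gene length and library size. Replicates were not pooled. All 6 columns of each table were matched to mice by library name.

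The test was the quasi-likelihood test of edgeR 4.0.16 under R 4.3.3, after filterByExpr and TMM scaling, with Benjamini-Hochberg adjustment over 16961 genes. CPM are TMM-normalised. Purkinje-relative values use log2 CPM with a prior count of 2. Alternatives used DESeq2 1.42.0, its size factors, no count filter or a minimum of 10 counts per mouse, a replicate block, sex as a covariate, limma 3.58.1 on log2(FPKM + 1) or log2(FPKM + 0.1), adjusted p alone, and each mouse left out. Leaving out control mice 1 and 2 together was added after seeing the data. It leaves 1 control mouse, so only fold changes are given for it. Class shares, and after seeing the data the order of levels, were recomputed from counts per kilobase of exon. Single values were compared with two-sided exact permutation tests, which cannot go below p = 0.10 here. The labels do not pair mice across genotypes, and p-values measure the spread between these mice. On data simulated with log2 changes of 1 or 2 in size and the same dispersion for every gene, 190 of 200 changed genes were called in the right direction. There, 6 unchanged genes were called. Smaller changes, such as those of the subunits here, were not simulated.

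The 10 members are all named, as are the genes of the 2 further lists with an adjusted p of at most 0.05, the 3 genes nearest to *Cacna1g*, of which 1 is not reported here, and markers where a sentence needed them. The members and lists were chosen with earlier results of these data known. Positions are from Gencode M39 on GRCm39 and promoters from RefSeq on GRCm38.p6.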

Additional observations from a re-analysis of the deposited data

How the results depend on the processing

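*Cacna1g* and *Cacnb2* were called lower under every alternative run, with log2 fold changes of -0.86 to -0.80 and -0.78 to -0.64. *Cacna2d2* ranged from -0.54 to -0.37. With each mouse left out, 2 to 3 subunits and 1 to 2 partner genes were called lower, and 426 to 632 genes in all. All genes called numbered 345 (185 lower, 160 higher) with limma on log2(FPKM + 1) and 1312 (805 lower, 507 higher) by adjusted p alone, which also put 1 other channel gene lower. They numbered 369 with DESeq2. Reversals touched values that had not passed a test. Those of *Cacna1h* were 0.0956 without Pcp2-cre mouse 1 (-0.104 to 0.0956 over the mice left out), 0.0350 and 0.0773 with limma on log2(FPKM + 1) and log2(FPKM + 0.1), and 0.0270 without control mice 1 and 2. *Cacna1c* was -0.0187 without control mouse 2 and *Cacna2d3* -0.0181 without control mouse 3, up to 0.106 and 0.0710 without control mouse 1. The share of *Cacnb4* changed by -0.457 percentage points from counts per kilobase, and that of *Cacna1f* by 0.0228, or 0.0109 without control mouse 2 (-0.0325 without control mouse 1). *Cacnb2* relative to the Purkinje cell markers was 0.0409 with *Calb1* alone, 0.00780 from FPKM and 0.0138 without Pcp2-cre mouse 1 (-0.130 without Pcp2-cre mouse 3). By counts per kilobase the share of *Cacna1g* fell by 11.2 points, that of *Cacna2d2* fell by 6.80 and that of *Cacnb2* fell by 1.66. The cause of these shifts was not tested.

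Same-numbered mice share a replicate number and also sex, as mice 1 and 2 are male and mouse 3 is female. They deviated together with r of 0.0408, 0.0565 and 0.166, and control mouse 1 correlated best with Pcp2-cre mouse 2 (0.0730). The r of 0.166 belongs to the females, in whom replicate number and sex cannot be told apart. With a replicate block 548 genes and the same number of subunits, 2, were called, and the adjusted p of *Cacna1e* was 0.0393. Across alternatives *Cacna1e* passed 0.05 in 4 of 14 planned fits and *Cacna1a* in 3 of 14. The counts of *Cacna1h* limit its interval.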
